A study of Rattus norvegicus with 8 samples.

Results

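The genes described here were read in endothelial cells of the leptomeninges and were nearly without reads in those of the dura. They are the Ensembl identifiers with a CPM of 2 or more in all 4 leptomeninges libraries and under 0.5 CPM in all 4 dura libraries. CPM is the usual library-scaled read count, the raw count of a gene relative to the total count of its library. The rule chose 6 of 32754 identifiers, or 0.0183%. Of the 32754, 23484 had a count in some library, and the others could not meet the rule. The 6 genes were chosen by their CPM in these 8 libraries, so the contrast between the tissues is given as a description, with no test. The cells came from untreated (naive) wild-type Lewis rats, an inbred strain, and no group received an agent or carried an altered allele. Both groups were sorted by flow cytometry as CD31+ CD45- CD11b- cells, one from the dura and the other from the leptomeninges of the brain. Each library pooled 4 animals, so differences between single animals were not measured. The labels give neither age nor sex of the rats, and the design text calls the libraries biological replicates.

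The meninges carry distinct vascular beds. Vessels of the leptomeninges, the thin arachnoid and pial membranes on the brain surface, have endothelium sealed by tight junctions and are known for many transport proteins of the blood-brain barrier. Vessels of the dura, the outer membrane under the skull, are of a peripheral kind, largely without that barrier and in part fenestrated. CD31 is an adhesion molecule of endothelial cells, and CD45 and CD11b mark leukocytes and myeloid cells.

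The count tables name genes by identifier alone, and 0 of the 32754 identifiers matched the RefSeq gene table used here, in which 0 of 47357 genes carry an Ensembl identifier. The symbols, functions, positions and promoter sequences of the 6 genes are therefore not given. Endothelial markers, markers of other meningeal or brain cells and the 19 gene lists set out for this comparison could not be looked up either, so the labelled cell type was not checked against its markers. A level in a sorted bulk sample is a mean over its cells, in which fewer cells of a type and less RNA per cell cannot be told apart. Any reads of arachnoid, pial or other cells carried through the sort would be counted in the values below, and their part in the results was not tested.

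Total counts ran from 15988636 to 24447082 in leptomeninges libraries and from 13291422 to 34451333 in dura libraries. The detection floor, set at 3 counts, was between 0.0871 and 0.226 CPM, and the 0.5 CPM threshold stood for between 6.65 counts in dura replicate 1 and 17.2 counts in dura replicate 4. Dura replicate 1 stood apart from the rest of its tissue. It held 16032 identifiers under 0.5 CPM, against 19373 to 19611 in the other dura libraries, and 21021 identifiers with a count, against 14915 to 16345. Leptomeninges replicate 2 held the fewest identifiers with a count, 14292, against 15949 to 17845 in the other leptomeninges libraries. The main counts below are also given without these libraries.

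The gene with the most reads was ENSRNOG00000001506, which had 4 counts in all dura libraries together and at least 439 in each leptomeninges library. Its counts there were 479, 439, 490 and 793 in replicates 1 to 4, or 24.6, 27.5, 22.3 and 32.4 CPM. In dura it had 4 counts in replicate 2, or 0.217 CPM, and 0 counts in replicates 1, 3 and 4. Every leptomeninges library was thus far above every dura library, and the single dura library with reads was not the one with the most genes detected. The mean in leptomeninges was 26.7 ± 4.38 CPM and that in dura 0.0544 ± 0.109 CPM (SD, n = 4 in both). The lowest leptomeninges value was 102 times the highest dura value. With the libraries of each tissue added together, the level in leptomeninges was 587 times that in dura (95% interval 229 to 2157, exact binomial). This interval and those that follow, like the floors, describe counting error alone. The intervals use counts added over the libraries of a tissue, so they leave out differences between libraries. The reads carry no molecular identifiers and may be copies of one molecule, so even the counting error may be larger than given. The rule chose genes with a high ratio, which the intervals do not allow for, so they show how few dura reads stand behind a ratio and test nothing. Without dura replicate 4, the deepest, the ratio was 356 (95% interval 139 to 1307, exact binomial). Without dura replicate 2 no dura read was left, and the level was at least 618 times higher in leptomeninges, taking 3 counts over the other dura libraries as the floor. This bound and those that follow omit the only dura library with reads of the gene. They set no lower limit over all 4 dura libraries. Among the 13458 genes with enough reads to be tested, 55.8% had a lower mean CPM in leptomeninges, so this gene lay near the middle of the expressed range there. CPM also depends on transcript length, so this position is one of reads and not of transcripts.

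ENSRNOG00000023458 was the next by mean CPM. It had 133, 98, 123 and 209 counts in leptomeninges replicates 1 to 4, or 6.82, 6.13, 5.59 and 8.55 CPM. Dura replicates 1 and 4 held 1 and 4 counts, or 0.0752 and 0.116 CPM, and dura replicates 2 and 3 held 0. The highest leptomeninges value came from replicate 4, as for ENSRNOG00000001506, and no dura library came near the leptomeninges range. The mean in leptomeninges was 6.77 ± 1.29 CPM and that in dura 0.0478 ± 0.0577 CPM (SD, n = 4 in both). With libraries added, the level in leptomeninges was 120 times that in dura (95% interval 51.2 to 371, exact binomial). Without dura replicate 4 a single dura count was left, and the ratio was 364 (95% interval 65.1 to 14404, exact binomial). Without dura replicate 3 the ratio fell to 90.9 (95% interval 38.7 to 281, exact binomial).

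**Figure D1:**
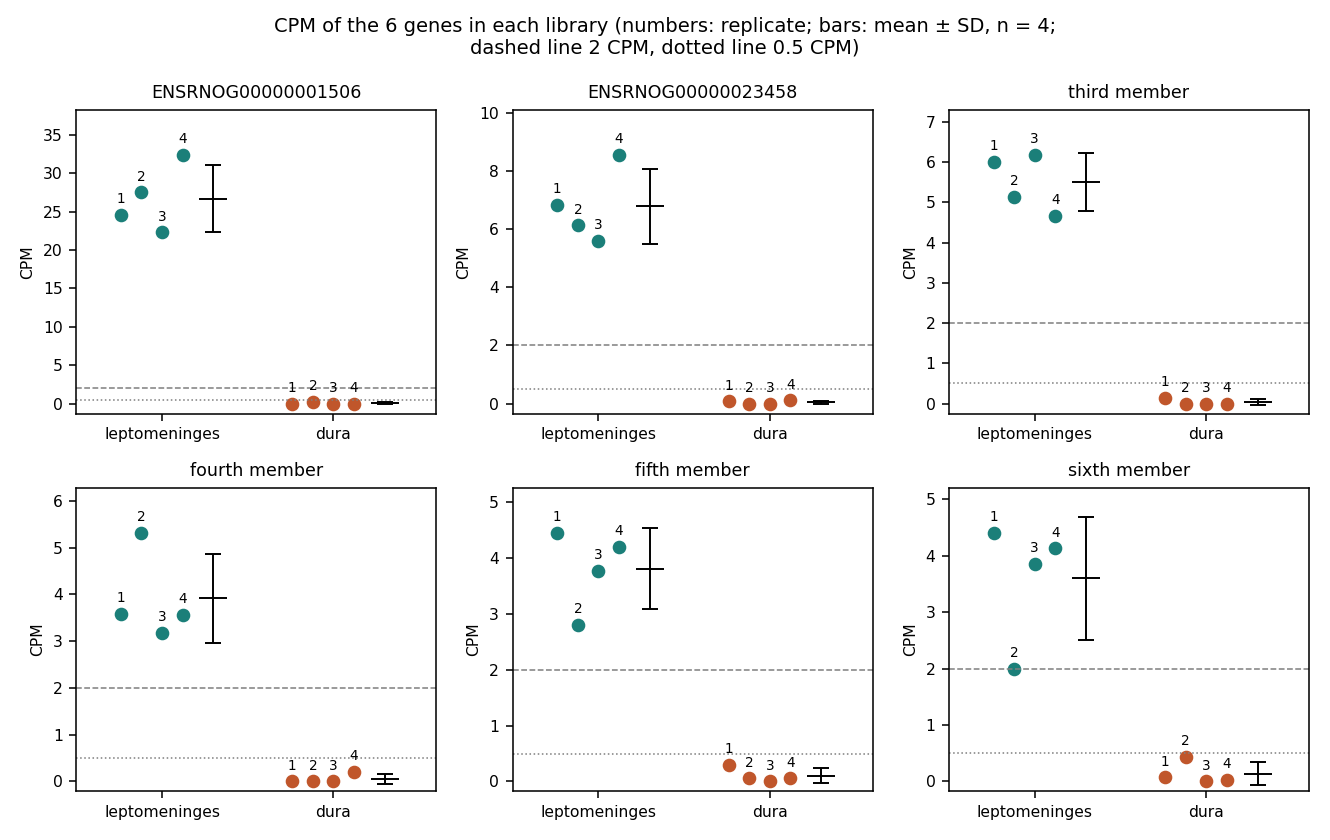
CPM of each of the 6 genes (vertical axis, linear, scaled per panel) in the 4 leptomeninges and 4 dura libraries (points, numbered by replicate), with the mean ± SD of each tissue beside them. ENSRNOG00000001506 lay between 22.3 and 32.4 CPM in leptomeninges, while the sixth member reached down to 2 CPM in leptomeninges replicate 2 and up to 0.435 CPM in dura replicate 2.

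The other 4 genes are ordered here by their mean CPM in leptomeninges, an order used only to tell them apart. The third member had the fewest dura reads of all: 2 counts in dura replicate 1, or 0.15 CPM, and 0 in the other dura libraries. In leptomeninges it was at 6, 5.13, 6.18 and 4.66 CPM in replicates 1 to 4, a mean of 5.49 ± 0.72 (SD, n = 4). It was the steadiest of the 6 across these libraries, with its highest value 1.33 times its lowest. Its level with libraries added was 240 times that in dura, but 2 counts leave this ratio poorly fixed (95% interval 65.9 to 1984, exact binomial). Without dura replicate 4 the ratio was 145 (95% interval 40 to 1202, exact binomial), and without dura replicate 1, with no dura read left, the level was at least 135 times higher in leptomeninges by the same floor.

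The fourth member was read in a single dura library. It had 7 counts in dura replicate 4, the deepest library, or 0.203 CPM, and 0 counts in dura replicates 1, 2 and 3. In leptomeninges it was at 3.59, 5.32, 3.18 and 3.56 CPM in replicates 1 to 4. Replicate 2 stood above the other leptomeninges libraries for this gene, and without it the mean moved from 3.91 ± 0.955 (SD, n = 4) to 3.44 ± 0.228 CPM (SD, n = 3). The level with libraries added was 47.6 times that in dura (95% interval 22.8 to 119, exact binomial), and at least 67.2 times higher by the same floor without dura replicate 4. Without dura replicate 3 the ratio fell to 36 (95% interval 17.3 to 90.2, exact binomial).

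The fifth and the sixth member lay closest to the thresholds, and each had reads in 3 of the 4 dura libraries. The fifth was at 4.46, 2.81, 3.77 and 4.21 CPM in leptomeninges replicates 1 to 4 and at 0.301, 0.0544, 0 and 0.0581 CPM in dura replicates 1 to 4. Its highest dura value, from 4 counts, came from dura replicate 1, the library in which the most genes had reads. The sixth was at 4.41, 2, 3.86 and 4.13 CPM in leptomeninges and at 0.0752, 0.435, 0 and 0.029 CPM in dura. Its lowest leptomeninges value was 32 counts in replicate 2, where the threshold itself stood for 32 counts, and its highest dura value was 8 counts in dura replicate 2. Both tissues thus place the sixth member at the edge of the rule. With libraries added, the fifth was 48.5 times as high in leptomeninges as in dura (95% interval 23.3 to 122, exact binomial), and the sixth was 32.4 times as high (95% interval 17.4 to 68.3, exact binomial). The ratio of the fifth was 95.9 without dura replicate 1 (95% interval 32.5 to 468, exact binomial, from 3 dura counts), and that of the sixth was 128 without dura replicate 2 (95% interval 35.2 to 1062, exact binomial, from 2 dura counts). Without dura replicate 3 the ratio of the fifth fell to 36.7 (95% interval 17.6 to 91.9, exact binomial). That of the sixth fell to 21.8 without dura replicate 4 (95% interval 11.4 to 48.2, exact binomial). Without leptomeninges replicate 2 the mean of the fifth moved from 3.82 ± 0.726 (SD, n = 4) to 4.15 ± 0.35 CPM (SD, n = 3), and that of the sixth from 3.6 ± 1.09 (SD, n = 4) to 4.14 ± 0.274 CPM (SD, n = 3).

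None of the 6 genes was without a read in dura as a whole. All 6 had a count in some dura library, and 13 of the 24 dura values were 0 counts. The dura libraries together held 35 counts of the 6 genes among 87429994, against 4147 among 81934006 in leptomeninges. Replicates 1 to 4 of dura held 8, 13, 0 and 14 of these counts. Dura replicate 3 held 0 counts of all 6, though it was the second deepest dura library. A count of 0 there allows up to 0.141 CPM for each gene. The dura reads fell in different libraries for different genes: the highest dura value was in replicate 2 for ENSRNOG00000001506 and the sixth member, in replicate 1 for the third and the fifth, and in replicate 4 for ENSRNOG00000023458 and the fourth.

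The summed level of the 6 genes was 49.9, 48.8, 44.9 and 57.6 CPM in leptomeninges replicates 1 to 4 and 0.602, 0.707, 0 and 0.406 CPM in dura replicates 1 to 4. ENSRNOG00000001506 gave 53.1% of the leptomeninges counts in this sum. Without it the sum was 25.3, 21.4, 22.6 and 25.1 CPM in leptomeninges and 0.602, 0.489, 0 and 0.406 CPM in dura. The coefficient of variation (SD divided by the mean) of the full sum over the leptomeninges libraries was 10.6%, lower than for any of the 6 genes alone.

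The spread among the leptomeninges libraries was not part of the rule, apart from the minimum of 2 CPM in each, and is set here beside the spread that counting alone would give. The coefficient of variation was 16.4% for ENSRNOG00000001506, where counting alone would give 4.32%. It was 19% for ENSRNOG00000023458 and ran from 13.1% in the third member to 30.3% in the sixth, where counting alone would give 9.56% and 11.6%. The median over the 6 genes was 19%. It was 17.1% over all 13458 genes tested and 19.8% over the 4492 of them whose mean lay within the range of the 6, between 3.6 and 26.7 CPM. Those 4492 genes, the 6 among them, were taken by their mean alone and not held to the minimum of 2 CPM in each library. That minimum limits how far a member with a low mean can spread. The medians are therefore not like for like, and nothing is read from how close they are.

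The 6 genes were not highest in the same leptomeninges library. ENSRNOG00000001506 and ENSRNOG00000023458 were both highest in replicate 4, at 1.22 and 1.26 times their own mean, and both lowest in replicate 3, at 0.835 and 0.825 times. The fifth and the sixth member were both highest in replicate 1, at 1.17 and 1.22 times their mean, and both lowest in replicate 2, at 0.738 and 0.556 times. The fourth was highest in replicate 2, at 1.36 times its mean, in the library where the fifth and the sixth were lowest. The third was highest in replicate 3, at 1.13 times its mean, and lowest in replicate 4, at 0.849 times. With 4 libraries no correlation between genes was computed.

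**Figure D2:**
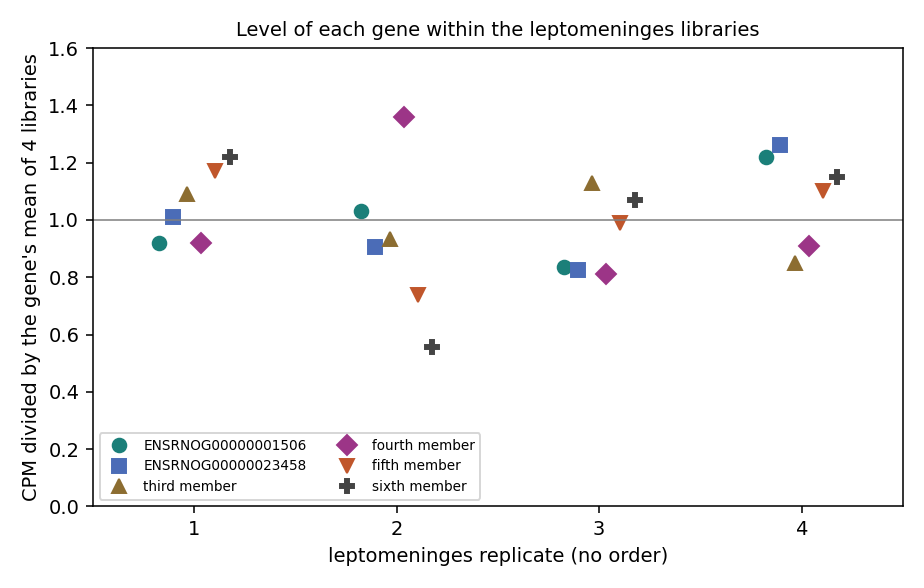
CPM of each gene divided by its mean over the 4 leptomeninges libraries (vertical axis, ratio) by replicate (horizontal axis, which has no order), with 1 symbol per gene and a line at 1. In replicate 2 the fourth member was at 1.36 and the sixth at 0.556 times its mean, the widest gap in the plot.

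Across all genes the 6 met both thresholds, while other genes lay close outside them. For the 6, the lowest leptomeninges value over the highest dura value ran from 4.6 in the sixth member to 102 in ENSRNOG00000001506. Whether the 6 form a group apart was not tested. In all, 10515 identifiers had 2 CPM or more in every leptomeninges library. Of these, 6 reached 0.5 CPM in 0 dura libraries, 24 in 1, 36 in 2, 71 in 3 and 10378 in all 4. Without both dura replicate 1 and leptomeninges replicate 2, 10791 identifiers met the leptomeninges threshold, and 23 of them reached 0.5 CPM in 0 dura libraries, 55 in 1, 83 in 2 and 10630 in all 3 left. From the other side, 15262 identifiers were under 0.5 CPM in every dura library, those without a count in any library among them. Of these, 6 that are no members fell short of 2 CPM in a single leptomeninges library.

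The values just inside and just outside the thresholds were close. Inside, the highest dura values of the 6 genes were 0.435 CPM in the sixth, 0.301 in the fifth and 0.217 in ENSRNOG00000001506. Outside, the 5 nearest genes that met the leptomeninges threshold had highest dura values of 0.598, 0.602, 0.639, 0.652 and 0.657 CPM. Their leptomeninges means were 9.54, 15.9, 6.09, 2.94 and 4.31 CPM, within or just under the range of the 6. On the leptomeninges side, the lowest value was 2 CPM in the sixth member and 2.81 in the fifth. The 5 nearest genes outside that met the dura threshold had lowest leptomeninges values of 1.96, 1.92, 1.81, 1.56 and 1.43 CPM.

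**Figure D3:**
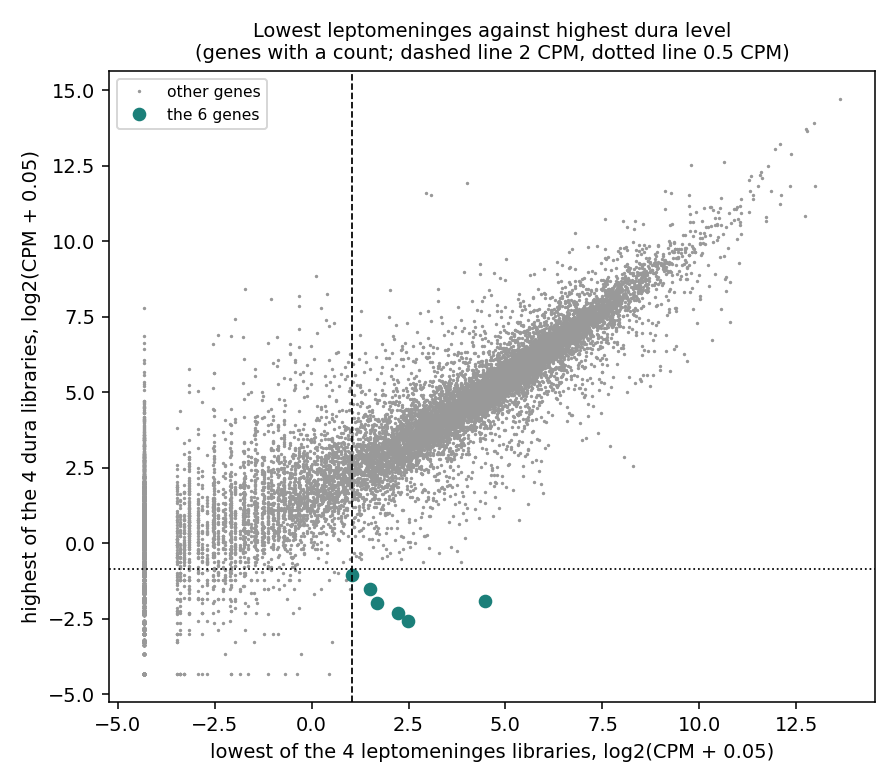
Each point is a gene with a count in some library, placed by its lowest value of 4 leptomeninges libraries (horizontal) and its highest value of 4 dura libraries (vertical), both as log2(CPM + 0.05). The 6 genes lie right of the dashed line at 2 CPM and under the dotted line at 0.5 CPM, with ENSRNOG00000001506 farthest to the right and the sixth member at the meeting of the lines.

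How much each library sets the choice was measured by applying the rule to the other 7 and reading the library left out. Without dura replicate 1 the rule chose 17 genes, and 11 of these were at 0.602 to 1.96 CPM in that library. Without dura replicate 4 it chose 14, and 8 of these were at 0.639 to 3.16 CPM there. Leaving out any other library gave between 6 genes, without leptomeninges replicate 3, and 9, without leptomeninges replicate 2 or dura replicate 2. The 6 genes were among those chosen each time, as follows from a rule that asks for every library. Without both dura replicate 1 and leptomeninges replicate 2 the rule chose 23 genes. With every library thinned to 13291422 counts it again chose 6, of which 5 were the same. This was a single random draw, so the spread between draws is not known.

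**Figure D4:**
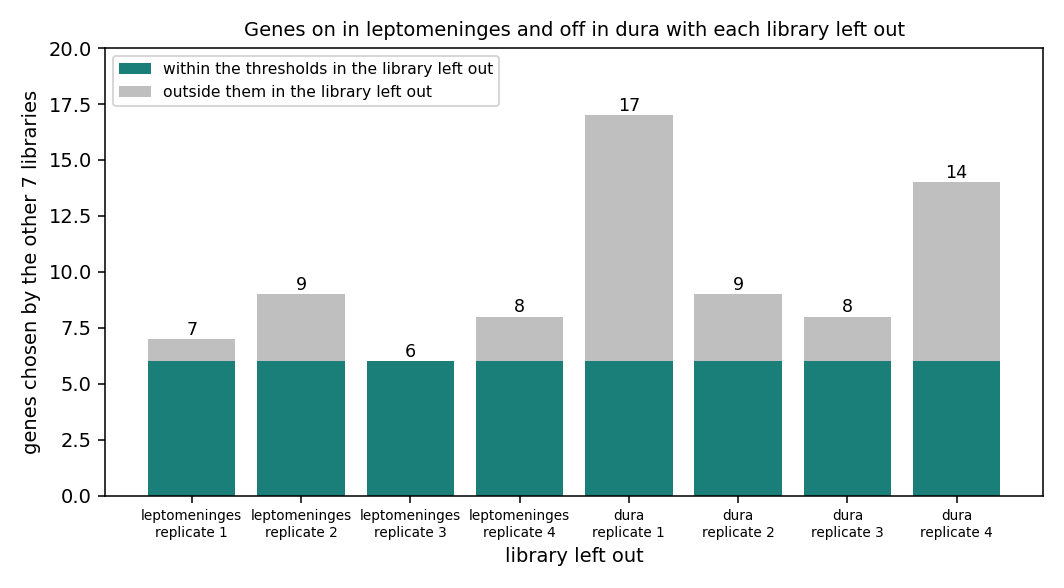
Number of genes that met the rule in the other 7 libraries (vertical axis, from 0) for each library left out (horizontal axis), divided into genes that also met it in the library left out and genes that did not. The bars reach 17 without dura replicate 1 and 14 without dura replicate 4, and lie between 6 and 9 otherwise.

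The same rule in the other direction, 2 CPM or more in every dura library and under 0.5 CPM in every leptomeninges library, chose 37 genes, or 0.113% of all identifiers. With all 8 libraries the number toward leptomeninges was the smaller at each of the 9 pairs of thresholds examined. It was 3 against 6 at 4 CPM and 0.25 CPM, 16 against 66 at 1 CPM and 0.5 CPM, 31 against 84 at 2 CPM and 1 CPM, and 53 against 154 at 1 CPM and 1 CPM. With TMM or median-ratio scaling the numbers at 2 CPM and 0.5 CPM were 8 and 37. In the single draw with every library thinned to 13291422 counts they were 6 and 35. The other threshold pairs were not examined under these scalings or in the thinned libraries. Leaving out single libraries gave between 38 genes, without dura replicate 1, and 46, without leptomeninges replicate 1 or dura replicate 2, on in dura. Leaving out dura replicate 1 thus moved the number on in leptomeninges, from 6 to 17, far more than the number on in dura. Without it the numbers were 37 against 70 at 1 CPM and 0.5 CPM and 64 against 88 at 2 CPM and 1 CPM. Without both dura replicate 1 and leptomeninges replicate 2 they were 23 against 43 at 2 CPM and 0.5 CPM, 13 against 15 at 2 CPM and 0.25 CPM, and 30 against 31 at 1 CPM and 0.25 CPM. At 2 CPM and 1 CPM they were then 76 against 99. Without leptomeninges replicate 2 alone they were 9 against 42 at 2 CPM and 0.5 CPM. Without dura replicate 1, without leptomeninges replicate 2 or without both, the number toward leptomeninges stayed the smaller at all 9 pairs of thresholds. The size of the gap thus depended more on dura replicate 1 than on leptomeninges replicate 2. Leaving out any other library was examined at 2 CPM and 0.5 CPM alone. These numbers come from the same 8 libraries, and their difference was not tested.

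In the fit across all genes, 13458 genes passed the filter on low counts, the 6 among them. In edgeR's quasi-likelihood test, 16.2% of the tested genes were higher in leptomeninges at a Benjamini-Hochberg adjusted p under 0.05, and 13.7% had every leptomeninges library above every dura library in CPM. All 6 genes were in both sets, which the rule itself brings about, so nothing is read from that count. Their fitted log2 fold changes, dura minus leptomeninges, ran from -9.07 in ENSRNOG00000001506 to -4.82 in the sixth member, with a median of -6.35 against 0.01 over all tested genes, a distance that the rule also fixes. With 0 counts in 1 to 3 dura libraries per gene, these fitted values depend on few reads.

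Nearly all of the 6 were also among the genes with the largest fitted folds, but most of those genes did not meet the rule. Of the 13458 genes tested, 33 were called with a fitted fold of 32 or more toward leptomeninges. Among them 5 were members, which is 15.2% of those genes and 83.3% of the members. The rule chose genes with a high ratio in these same libraries, so nothing is read from the members' share. The sixth member was below a fold of 32. Of the other 28, 19 had 0.5 CPM or more in some dura library and 9 were under 2 CPM in some leptomeninges library. By fitted fold ENSRNOG00000001506 ranked 1 and ENSRNOG00000023458 ranked 8 toward leptomeninges, and the remaining members ranked 5, 17, 27 and 38. Most genes with a large fold toward leptomeninges were therefore still read above 0.5 CPM in some dura library.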

How the data were processed

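RNA of sorted CD31+ CD45- CD11b- cells was purified with TRIzol and made into TruSeq RNA libraries, per the labels' protocols. The authors deposited raw read counts per Ensembl gene, 1 table per library, and the submitters' processing notes name bcl2fastq 2.20, STAR 2.5, featureCounts 1.5.0-p1 and rn6. The annotation release, strand setting and treatment of multimapping reads were not given in these sources, so reads of overlapping or near-identical genes cannot be told apart. Libraries of a tissue differed beyond sampling noise (chi-square per degree of freedom 17.6 to 45.6).

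Here, CPM used the column sums, the members were found by the stated rule, and ratios used summed counts with exact binomial 95% intervals. All genes were fitted with edgeR 4.0.16 (R 4.3.3) after filterByExpr (minimum count 10, total 15) and TMM scaling, with tissue as the only term, two-sided, and the script was tested on simulated data. The members and lists were chosen with earlier results of these data known. The rule for naming genes, without symbols, allowed 2 identifiers, those with the highest leptomeninges mean. Alternatives were other thresholds, scalings, filters, DESeq2 1.42.0, limma-voom (limma 3.58.1), a replicate block and leaving out each library.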

Additional observations from a re-analysis of the deposited data

Results flagged for a closer look

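Dixon's test for a stray value was applied to 24 sets of 4 libraries of a tissue, and in 5 of them the highest or lowest library passed its 95% critical value. Chance flags about 1 in 20 such sets, and these overlap in what they measure. In 3 of the 5 the other dura libraries were at 0 counts, so any read would have passed: ENSRNOG00000001506 at 0.217 CPM in dura replicate 2, the third member at 0.15 CPM in dura replicate 1 and the fourth at 0.203 CPM in dura replicate 4. The other sets concern dura replicate 1, which held 16032 identifiers under 0.5 CPM and 12472 at 2 CPM or more, against 19373 to 19611 and 11333 to 11482 in the other dura libraries. Of the 24 genes kept out of the rule by a single dura library, 11 were kept out by this one and 8 by dura replicate 4.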

How the results depend on the processing

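The 6 genes became 16 with 1 CPM or more in leptomeninges, 3 with 4 CPM or more, 31 with under 1 CPM in dura and 60 with thresholds on tissue means. With a library left out the number lay between 6 and 17. Without dura replicate 1 and leptomeninges replicate 2, an alternative chosen after seeing the data, it was 23. It was 4 with under 0.25 CPM in dura and 8 with TMM or median-ratio scaling. The summed level in leptomeninges, 50.3 ± 5.32 CPM (SD, n = 4), was 23.6 without the member with the highest mean, and the mean of log2(CPM + 0.5) over members was 2.73 there and -0.83 in dura, where the summed level was 0.429 ± 0.312 CPM. The number of genes differing between tissues, 4317 of 13458, lay between 3761 and 4249 with a library left out and between 4268 and 4647 under the other scalings, filters and tools. Scaling by library size alone moved the calls higher in dura from 49.4% to 58.4%. With the replicate block it was 4400. Same-numbered libraries deviated together at correlations of 0.112, 0.144, 0.00263 and -0.00439, and 4 of 8 libraries correlated best with their own number. Those of numbers 1 and 2 were the highest of any leptomeninges and dura library, so these values do not settle whether the numbers are pairs. The labels do not say what a number shares, and the main fit did not take the numbers as pairs. Alternatives for gene lists, named list genes and promoter features needed symbols and were not run. Thinning, the rule in the other direction under other scalings or without libraries, and the alternatives for single members were also chosen after seeing the data. Depth limits the dura values: a count of 0 allows up to 0.226 CPM in the shallowest dura library.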
